A study of Homo sapiens with 8 samples.

Results

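The genes of homologous recombination and of the Fanconi anaemia pathway were examined in HCT116, a human colorectal cancer line, by counting reads at the 3′ ends of poly(A) RNA. The set was a list of 41 gene symbols written by hand, each of which matched 1 of the 78932 Ensembl gene identifiers in the tables. All 41 are protein-coding, and they lie on 17 chromosomes. The cells carried a dTAG degradation tag on NUDT21, the small subunit of the cleavage factor CFIm, which binds RNA upstream of poly(A) sites. DMSO with JTE-607 was the control treatment (4 libraries). In the other 4, dTAGV1, a small molecule that sends tagged proteins for degradation, replaced DMSO. JTE-607 inhibits CPSF73, the nuclease that cleaves RNA at poly(A) sites, and all 8 libraries had it, so an effect of dTAGV1 without JTE-607 was not measured. The labels give neither doses nor times, and they do not say whether the tagged cells are 1 clone or whether libraries of a group came from separate cultures. The p-values therefore measure the spread between these libraries, which may be technical.

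Homologous recombination repairs broken DNA by copying an intact sister chromatid. The broken ends are first cut back to single strands, 1 strand then invades the sister with the help of BRCA2, and the joined molecules are finally separated by helicases or nucleases. The Fanconi pathway acts on strands linked to each other: its core complex attaches ubiquitin to the FANCD2 and FANCI pair, which brings in nucleases, and the break that results is passed to homologous recombination. Both pathways work mainly in S and G2 phase, and many of their genes are known to be transcribed most in cycling cells.

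Libraries held 3447842 to 4291256 reads counted to genes on the sense strand. Epithelial markers were well covered, with mean counts of 218 for CDH1 to 2426 for KRT19 (1 of 6 was called higher, EPCAM, and 3 lower), whereas 9 of 10 markers of blood, vessel, stromal, liver and glial cells had a mean count under 5, and COL3A1 and ALB were at 0. Summed, these 10 markers took 17.8 to 23.8 CPM with DMSO and 12.1 to 17.3 CPM with dTAGV1, nearly all of it COL1A1. NUDT21 had 104 to 139 counts in the DMSO libraries and 15 to 43 in the dTAGV1 libraries (log2 fold change -1.95, standard error 0.18, adjusted p = 1.36e-09, edgeR). The tag acts on the protein, which was not measured. Reads that fit no gene on the sense strand made up 30.1% to 33.7% of uniquely mapped reads with DMSO and 35.9% to 37.4% with dTAGV1, and their part in the results was not tested.

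Most of the set was lower with dTAGV1. Of 41 genes, 40 passed the filter on low counts; RAD51B did not. Of these 40, 29 were lower and 5 higher, and 6 did not pass the test (quasi-likelihood test in edgeR, threshold 0.05 after Benjamini-Hochberg adjustment). The number higher was less stable: it was 2 or 3 in 11 of 17 alternatives. Leaving out 1 of DMSO replicates 1, 3 and 4 and of dTAGV1 replicates 2 and 3 gave 3, and leaving out dTAGV1 replicate 4 gave 2. Over all 12618 genes tested, 57.9% passed, 28.5% lower and 29.4% higher. The median log2 fold change was -0.87 over the 40 genes and 0.01 over all genes tested, where negative values are lower with dTAGV1. More than 2-fold falls were called for 18 of the 40, against 9.23% of all genes tested. In 32 of the 40 the 2 groups did not overlap in CPM (counts in each 1000000 after scaling of the libraries), against 50.9% of all genes. The genes had mean counts of 17.2 to 704, so changes of the least counted ones are the least certain.

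**Figure D1:**
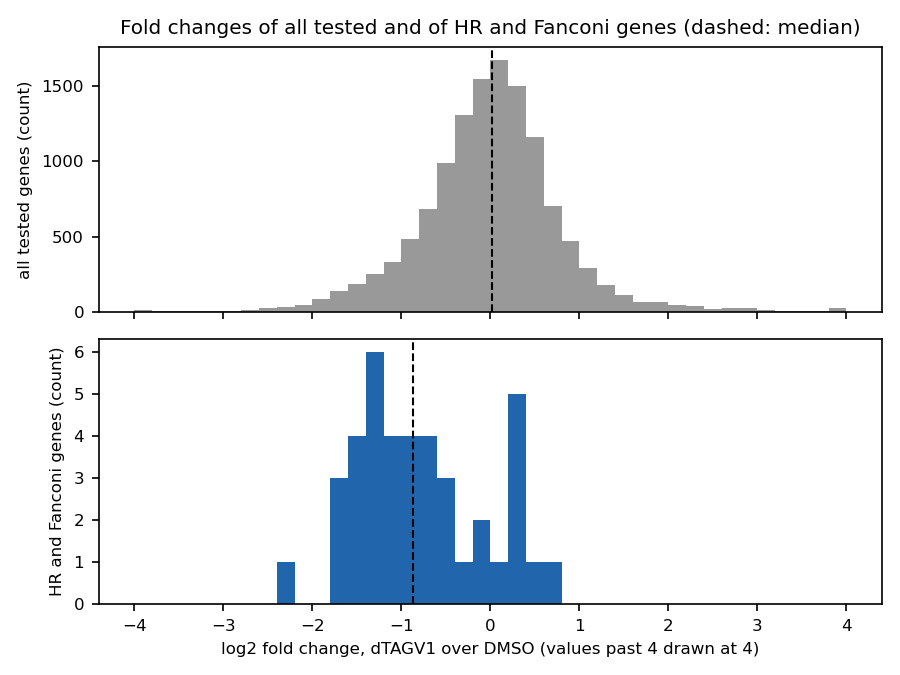
Histograms of the log2 fold change (x axis, dTAGV1 over DMSO) of all 12618 tested genes (top, number of genes) and of the 40 tested homologous recombination and Fanconi genes (bottom), with a dashed line at each median. The lower histogram has its median at -0.87 and a second, smaller peak above 0.

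Together the 41 genes took 0.164% ± 0.0131 of sense counts with DMSO and 0.104% ± 0.00653 with dTAGV1 (mean ± SD, n = 4 each). By replicate number, their summed level was 1478, 1776, 1680 and 1523 CPM with DMSO, while dTAGV1 gave 1031, 1041, 1068 and 1152 CPM. The groups did not overlap in this sum, and the median gene lay 0.77 to 0.86 (log2) below its DMSO mean in each dTAGV1 library. Within the DMSO group, replicate 2 was the highest library for 20 of the 41 genes and replicate 1 the lowest for 19. Mitotic genes showed the same order of sums: 2695 CPM in DMSO replicate 1 and 4831 CPM in replicate 2. So did DNA replication, end joining and other recombination and Fanconi genes, but not excision and mismatch repair genes. With dTAGV1, replicate 4 was the highest library for 16 of the 41 genes. It had the highest sum both for the set and for mitotic genes, while the order of the other libraries differed. Mitotic genes were at 1571, 1328, 1426 and 1754 CPM by replicate number. With bulk RNA, fewer cells in a phase of the cycle and less RNA per cell cannot be told apart.

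**Figure D2:**
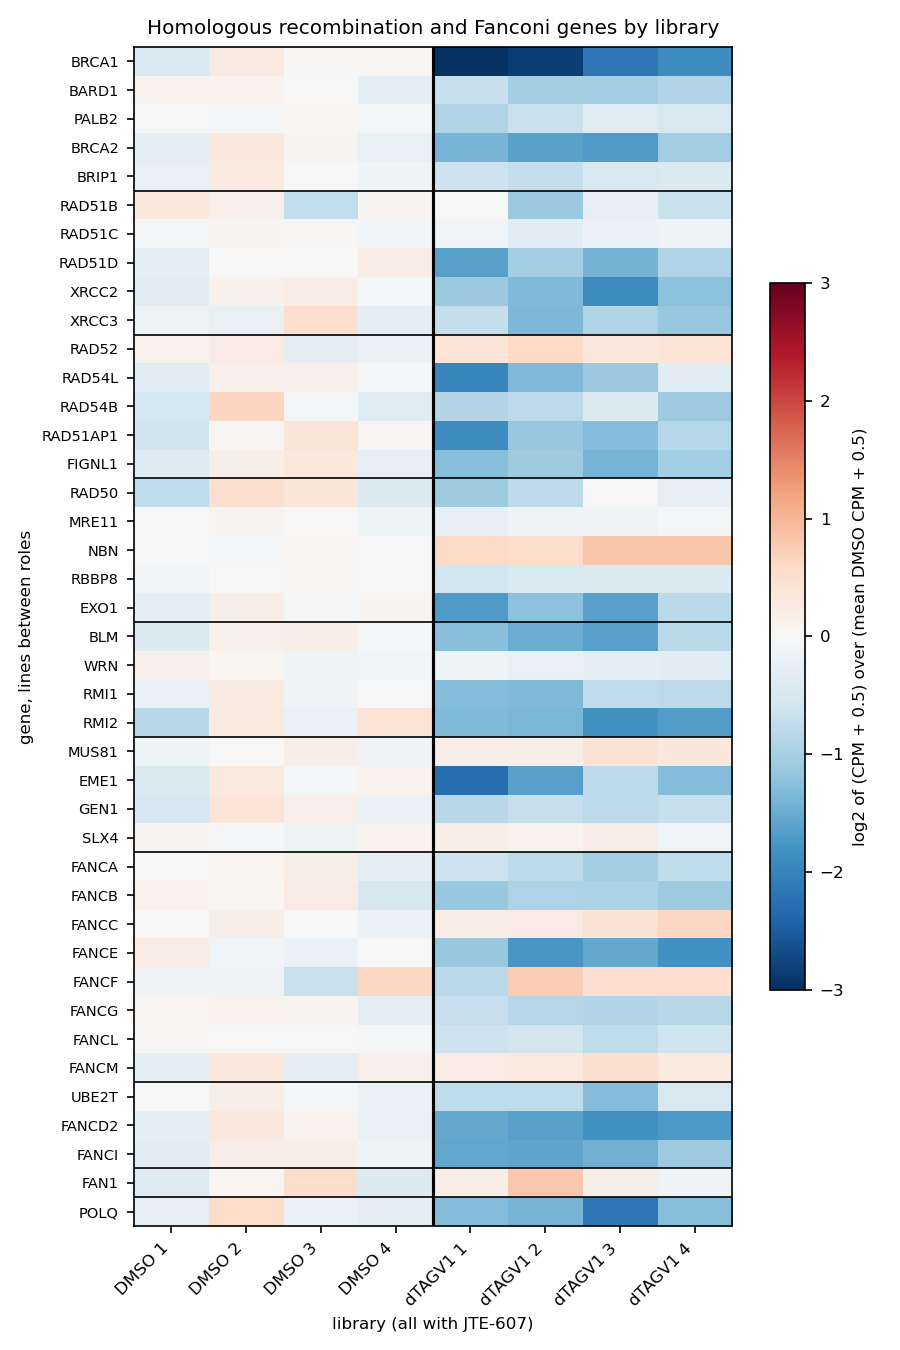
Level of each of the 41 genes (rows, grouped by role) in each of the 8 libraries (columns), as log2 of CPM plus 0.5 over the mean of the DMSO libraries plus 0.5. Blue is lower and red higher than the DMSO mean: blue fills most rows of the 4 dTAGV1 columns, while NBN, RAD52, FANCC, FANCM and MUS81 are among the rows that are red there.

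Promoter sequences were read for what the genes share outside the counts. RefSeq gave the 250 bases before to 50 bases after the start of 36 of the 41 genes (GRCh38.p14). They were searched on both strands for 4 words of the E2F type, the site of the factors that drive S-phase genes: TTCCCGC and TTCGCGC, with TTGCCGC and then TTGGCGC. At least 1 was present in 20 of the 36 windows (55.6%). By call, it was in 17 of the 25 windows of genes called lower (68.0%), in 2 of 4 of those called higher and in 1 of 7 of the others. Whether the word goes with the fall was not tested. The share was 21.4% over 9230 promoters of tested genes and 13.0% over all 35116 promoters. The GC content was similar, with medians of 65.0% for genes called lower and 65.7% for promoters of tested genes. The cell cycle word TTTGAA or TTCGAA was in 3 of the 25 and in 11.1% of promoters of tested genes, and CCAAT in 9 of 25 and 37.1%. Of the E2F words, the windows of BRCA1 and BRCA2 held none. That of BRCA1 lies at its most distant annotated start, beside NBR1, and not at the start beside NBR2. A match is a string of letters, not a bound site.

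The windows of the 4 genes with the largest falls among those that hold an E2F-type word, and of 3 genes called higher, are printed to show where the word lies, in capitals. They are, in order, chr3:10026187-10026486 (plus strand), chr6:35452088-35452387 (plus strand), chr3:121545939-121546238 (minus strand), chr17:50372979-50373278 (plus strand), chr12:949645-949944 (minus strand), chr9:95317660-95317959 (minus strand) and chr14:45135680-45135979 (plus strand), all 5′ to 3′.
FANCD2: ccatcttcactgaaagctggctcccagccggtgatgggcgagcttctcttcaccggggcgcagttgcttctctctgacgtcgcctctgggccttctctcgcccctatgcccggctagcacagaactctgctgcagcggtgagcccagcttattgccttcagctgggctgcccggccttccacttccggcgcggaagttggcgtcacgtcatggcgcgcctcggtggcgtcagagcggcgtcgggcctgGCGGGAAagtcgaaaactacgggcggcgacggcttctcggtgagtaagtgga
FANCE: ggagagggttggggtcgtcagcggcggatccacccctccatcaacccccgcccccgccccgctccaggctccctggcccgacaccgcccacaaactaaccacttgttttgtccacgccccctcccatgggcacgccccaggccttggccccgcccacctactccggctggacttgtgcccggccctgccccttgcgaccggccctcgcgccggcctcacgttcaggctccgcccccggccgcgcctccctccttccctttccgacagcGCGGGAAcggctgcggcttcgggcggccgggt
POLQ: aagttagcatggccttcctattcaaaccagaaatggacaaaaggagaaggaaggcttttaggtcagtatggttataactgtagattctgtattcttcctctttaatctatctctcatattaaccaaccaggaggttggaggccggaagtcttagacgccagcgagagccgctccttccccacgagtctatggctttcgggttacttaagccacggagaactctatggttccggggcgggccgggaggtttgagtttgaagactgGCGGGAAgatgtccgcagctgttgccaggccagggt
EME1: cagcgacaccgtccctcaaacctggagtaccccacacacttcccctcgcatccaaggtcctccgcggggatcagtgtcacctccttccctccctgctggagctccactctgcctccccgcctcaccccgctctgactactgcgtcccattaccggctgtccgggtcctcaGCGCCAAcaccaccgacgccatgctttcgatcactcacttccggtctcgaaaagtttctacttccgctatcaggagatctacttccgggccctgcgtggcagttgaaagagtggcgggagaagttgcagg
RAD52: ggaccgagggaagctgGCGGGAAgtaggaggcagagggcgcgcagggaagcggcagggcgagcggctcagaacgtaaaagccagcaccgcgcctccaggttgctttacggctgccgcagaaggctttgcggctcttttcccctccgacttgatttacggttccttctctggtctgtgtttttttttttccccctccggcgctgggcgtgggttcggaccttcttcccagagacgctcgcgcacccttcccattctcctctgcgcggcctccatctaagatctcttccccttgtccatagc
FANCC: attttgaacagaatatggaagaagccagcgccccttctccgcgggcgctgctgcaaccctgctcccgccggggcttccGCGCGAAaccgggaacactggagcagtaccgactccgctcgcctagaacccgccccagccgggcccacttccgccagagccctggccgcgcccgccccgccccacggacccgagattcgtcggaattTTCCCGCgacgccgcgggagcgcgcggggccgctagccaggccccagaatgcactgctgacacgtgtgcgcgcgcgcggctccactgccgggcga
FANCM: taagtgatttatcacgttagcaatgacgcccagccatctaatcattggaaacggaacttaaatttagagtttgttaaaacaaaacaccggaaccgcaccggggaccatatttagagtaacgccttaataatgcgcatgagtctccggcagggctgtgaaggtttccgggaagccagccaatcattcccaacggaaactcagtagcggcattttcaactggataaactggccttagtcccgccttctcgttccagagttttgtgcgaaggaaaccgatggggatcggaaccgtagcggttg
In FANCD2, FANCE and POLQ the word is the same, GCGGGAA, the reverse complement of TTCCCGC, and it lies at or near the start. EME1 holds GCGCCAA, the reverse complement of TTGGCGC. RAD52 holds GCGGGAA near the far end of its window, FANCC holds 2 matches of different words, and FANCM has none.

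The BRCA1 to BRCA2 group was lower in all 5 genes. Its summed level was 204 to 277 CPM in the DMSO libraries and 88.2 to 115 CPM in the dTAGV1 libraries. BRCA1 (ENSG00000012048, chromosome 17, 43044295 to 43170245, minus strand) encodes a ubiquitin ligase that promotes end resection. It had counts of 217, 414, 320 and 351 with DMSO and 36, 37, 62 and 94 with dTAGV1, given here and below in the order of the replicate numbers, with coordinates from GENCODE 29 on GRCh38. Every dTAGV1 library lay far below every DMSO library. BRCA1 fell from 82.8 ± 17.0 to 15.5 ± 5.76 CPM (SD, n = 4 each), the largest fall of the set (log2 fold change -2.40, standard error 0.23, adjusted p = 4.58e-06, edgeR). It overlaps AC060780.1 on the same strand, away from its 3′ end. BRCA2 (ENSG00000139618, chromosome 13, 32315474 to 32400266, plus strand), which acts after resection to prepare strand invasion, had counts of 122, 209, 161 and 140 with DMSO and 53, 43, 41 and 81 with dTAGV1. The groups did not overlap, and it fell from 40.3 ± 7.96 to 14.8 ± 3.15 CPM (log2 fold change -1.43, standard error 0.16, adjusted p = 4.98e-08, edgeR). The partners changed less. BARD1, the partner of BRCA1 in the ligase, had a log2 fold change of -0.89. PALB2, which bridges BRCA1 and BRCA2, had -0.60, and BRIP1, a helicase bound to BRCA1, had -0.56. Standard errors were 0.12 to 0.16 and adjusted p-values at most 0.00184 (edgeR).

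**Figure D3:**
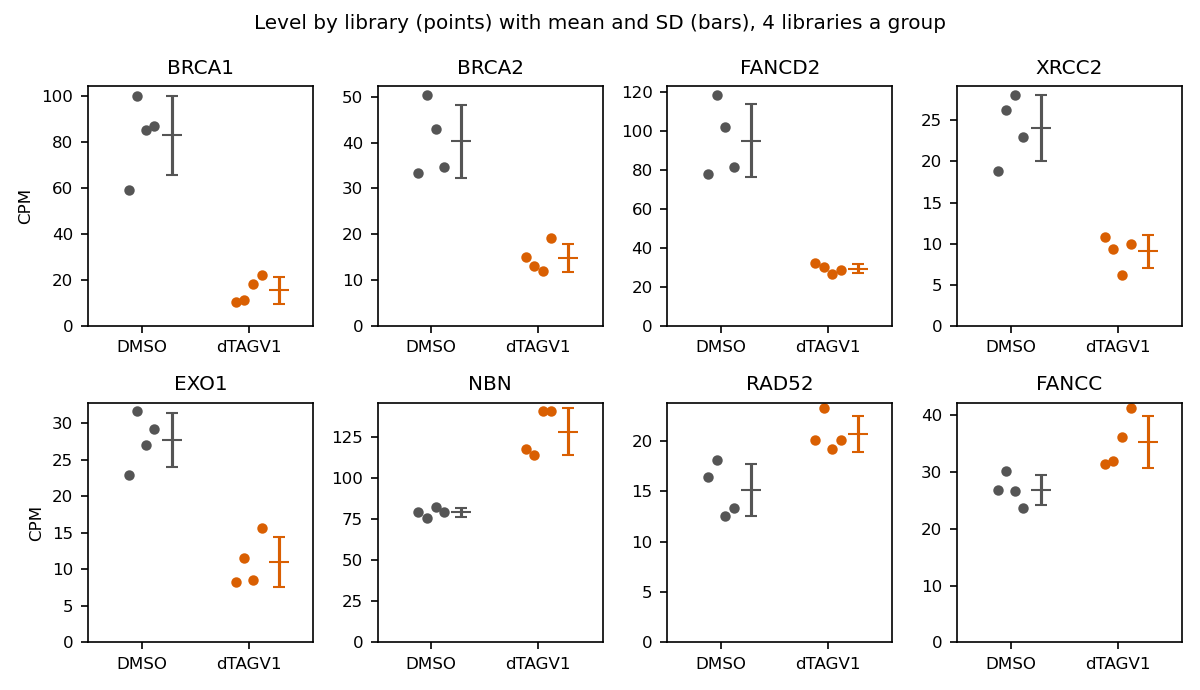
Level in CPM (y axis from 0) of 8 genes in the 4 DMSO (grey) and 4 dTAGV1 (orange) libraries, points for libraries and bars for mean and SD. BRCA1, BRCA2, FANCD2, XRCC2 and EXO1 are lower and NBN, RAD52 and FANCC higher in every dTAGV1 library than in any DMSO library.

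The paralog complexes, made of RAD51B, RAD51C, RAD51D, XRCC2 and XRCC3, assist strand invasion, and their genes differed among themselves. Of 4 tested, 3 were lower and RAD51C did not pass. XRCC2 (ENSG00000196584, chromosome 7, 152644779 to 152676165, minus strand) had counts of 69, 109, 105 and 93 with DMSO and 38, 31, 21 and 42 with dTAGV1. The highest dTAGV1 library lay well under the lowest DMSO library, and it fell from 24.0 ± 4.03 to 9.06 ± 2.0 CPM (log2 fold change -1.40, standard error 0.18, adjusted p = 4.03e-07, edgeR). For RAD51D (ENSG00000185379, chromosome 17, 35092208 to 35121522, minus strand) counts were 48, 65, 60 and 75 with DMSO and 17, 25, 19 and 35 with dTAGV1. It fell from 15.8 ± 2.22 to 6.56 ± 1.62 CPM (log2 fold change -1.26, standard error 0.20, adjusted p = 9.34e-06, edgeR). Its 3′ end and nearly all of its length lie in RAD51L3-RFFL, a read-through gene on the same strand, so its counts are uncertain. XRCC3, which pairs with RAD51C, had a log2 fold change of -1.05 (standard error 0.22, adjusted p = 0.000225, edgeR). RAD51C, the paralog shared by both paralog complexes, had -0.18 (0.10, adjusted p = 0.116, edgeR), with all dTAGV1 libraries below the DMSO libraries but by little: 62.2 ± 3.25 and 55.0 ± 4.31 CPM. With scaling by library size alone it was -0.25 and passed (adjusted p = 0.0293, edgeR). RAD51B had 5 to 12 counts with DMSO and 3 to 9 with dTAGV1, too few for a test here.

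Among the genes of strand invasion and annealing, 4 of 5 were lower and RAD52 was higher. RAD51AP1 (ENSG00000111247, chromosome 12, 4538798 to 4560048, plus strand), which stimulates strand invasion, had counts of 81, 143, 162 and 140 with DMSO and 31, 50, 45 and 77 with dTAGV1. Its groups did not overlap, and the level moved from 33.6 ± 8.68 to 13.8 ± 3.94 CPM (log2 fold change -1.27, standard error 0.21, adjusted p = 4.65e-05, edgeR). FIGNL1 (ENSG00000132436, chromosome 7, 50444128 to 50542535, minus strand), an ATPase of the recombination pathway, had counts of 85, 144, 142 and 103 with DMSO and 43, 47, 38 and 62 with dTAGV1 and fell from 30.3 ± 7.08 to 13.1 ± 1.64 CPM (log2 fold change -1.21, standard error 0.17, adjusted p = 1.19e-06, edgeR). It overlaps DDC on the same strand, away from its 3′ end. The translocase RAD54L had a log2 fold change of -1.10 (standard error 0.27, adjusted p = 0.00109, edgeR). Its highest dTAGV1 library, at 8.99 CPM, almost reached its lowest DMSO library, at 9.02 CPM. Leaving out single libraries gave -1.56 to -0.88, and the call was kept. Its relative RAD54B was at -0.89 (standard error 0.31, adjusted p = 0.0173, edgeR). RAD54B averaged only 18.1 counts, its groups overlapped, and without DMSO replicate 2 it was -0.55 and no longer passed (adjusted p = 0.148, edgeR). RAD52 (ENSG00000002016, chromosome 12, 912077 to 990053, minus strand), which anneals single strands and serves as a back-up to BRCA2 in human cells, had counts of 60, 75, 47 and 54 with DMSO and 71, 77, 65 and 85 with dTAGV1. In CPM its groups did not overlap, and it rose from 15.1 ± 2.6 to 20.7 ± 1.79 CPM (log2 fold change 0.45, standard error 0.16, adjusted p = 0.0169, edgeR). The call was lost without DMSO replicate 3, DMSO replicate 4 or dTAGV1 replicate 2, at 0.37, 0.39 and 0.38 (adjusted p = 0.0704, 0.0625 and 0.0612, edgeR).

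End resection genes moved in both directions, and their summed level, 365 to 401 CPM with DMSO and 320.0 to 379 CPM with dTAGV1, overlapped between the groups. EXO1 (ENSG00000174371, chromosome 1, 241847967 to 241895148, plus strand), the exonuclease of long-range resection, had counts of 84, 131, 101 and 118 with DMSO and 29, 38, 29 and 66 with dTAGV1. Its groups were far apart, and it fell from 27.7 ± 3.67 to 10.96 ± 3.43 CPM (log2 fold change -1.32, standard error 0.18, adjusted p = 8.22e-07, edgeR). RBBP8, which encodes the resection starter CtIP, had a log2 fold change of -0.46 (standard error 0.07, adjusted p = 7.08e-06, edgeR). NBN (ENSG00000104320, chromosome 8, 89933336 to 90003228, minus strand) encodes the subunit that ties the MRE11 nuclease complex to checkpoint signalling. Its counts were 290, 314, 309 and 320 with DMSO and 415, 377, 476 and 594 with dTAGV1. All 4 dTAGV1 libraries were above all DMSO libraries, and it rose from 79.1 ± 2.74 to 128 ± 14.3 CPM (log2 fold change 0.70, standard error 0.09, adjusted p = 2.40e-07, edgeR), the largest rise of the set. The other subunits did not pass: MRE11 was at 54.6 ± 3.07 with DMSO and 49.9 ± 3.22 CPM with dTAGV1 (log2 fold change -0.13, adjusted p = 0.273, edgeR) and RAD50 at 8.21 ± 3.43 and 5.83 ± 2.1 CPM (-0.49, adjusted p = 0.165, edgeR). Without DMSO replicate 1, RAD50 passed as lower at -0.68 (adjusted p = 0.0435, edgeR), and without DMSO replicate 2 it was -0.28 (adjusted p = 0.477, edgeR). RAD50 had 13 to 48 counts a library and overlaps AC116366.3, annotated on the same strand.

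All 4 genes of the helicase group were lower. BLM (ENSG00000197299, chromosome 15, 90717327 to 90816165, plus strand), the helicase that dissolves joined molecules, had counts of 108, 183, 172 and 157 with DMSO and 58, 46, 42 and 95 with dTAGV1. Its groups did not overlap, and it fell from 39.6 ± 7.36 to 16.3 ± 4.44 CPM (log2 fold change -1.26, standard error 0.17, adjusted p = 1.38e-06, edgeR). Its cofactor RMI2 (ENSG00000175643, chromosome 16, 11249619 to 11381662, plus strand) had counts of 17, 44, 28 and 47 with DMSO and 11, 10, 7 and 10 with dTAGV1, few in every dTAGV1 library. It fell from 8.59 ± 3.17 to 2.64 ± 0.511 CPM (log2 fold change -1.71, standard error 0.31, adjusted p = 3.77e-05, edgeR). RMI1, the other cofactor, had a log2 fold change of -1.04 (standard error 0.17, adjusted p = 8.07e-06, edgeR). WRN, a helicase of the same family, changed by only -0.24 (0.08, adjusted p = 0.0167, edgeR), the smallest fall among the genes called. Without DMSO replicate 1 it was -0.20 and did not pass (adjusted p = 0.0597, edgeR).

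The nucleases that cut joined molecules did not share a direction. EME1 (ENSG00000154920, chromosome 17, 50373220 to 50381483, plus strand) had counts of 38, 72, 51 and 62 with DMSO and 9, 14, 27 and 23 with dTAGV1. Its groups did not overlap, and it fell from 14.2 ± 2.96 to 5.04 ± 2.27 CPM (log2 fold change -1.49, standard error 0.25, adjusted p = 1.81e-05, edgeR). MUS81 (ENSG00000172732, chromosome 11, 65857126 to 65867653, plus strand), the catalytic partner of EME1, had counts of 96, 116, 121 and 106 with DMSO and 114, 106, 130 and 148 with dTAGV1, with overlap between the groups in CPM. It rose from 28.2 ± 2.86 to 34.4 ± 2.92 CPM (log2 fold change 0.29, standard error 0.12, adjusted p = 0.045, edgeR). This call was lost in 11 of 17 alternatives, among them RLE scaling (0.28, adjusted p = 0.0531, edgeR) and the fits that left out 1 of DMSO replicates 1, 2 and 4 and of dTAGV1 replicates 3 and 4 (0.22 to 0.28). Its values remained above 0 in all 17. GEN1 (ENSG00000178295, chromosome 2, 17753858 to 17788941, plus strand), a resolvase that acts alone, had counts of 66, 139, 107 and 92 with DMSO and 50, 52, 50 and 66 with dTAGV1 and fell from 25.7 ± 6.75 to 15.1 ± 0.735 CPM (log2 fold change -0.77, standard error 0.17, adjusted p = 0.000374, edgeR). SLX4, a scaffold that docks MUS81 and other nucleases, was at 8.97 ± 0.78 with DMSO and 9.67 ± 0.823 CPM with dTAGV1 and did not pass (log2 fold change 0.10, standard error 0.19, adjusted p = 0.671, edgeR).

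**Figure D4:**
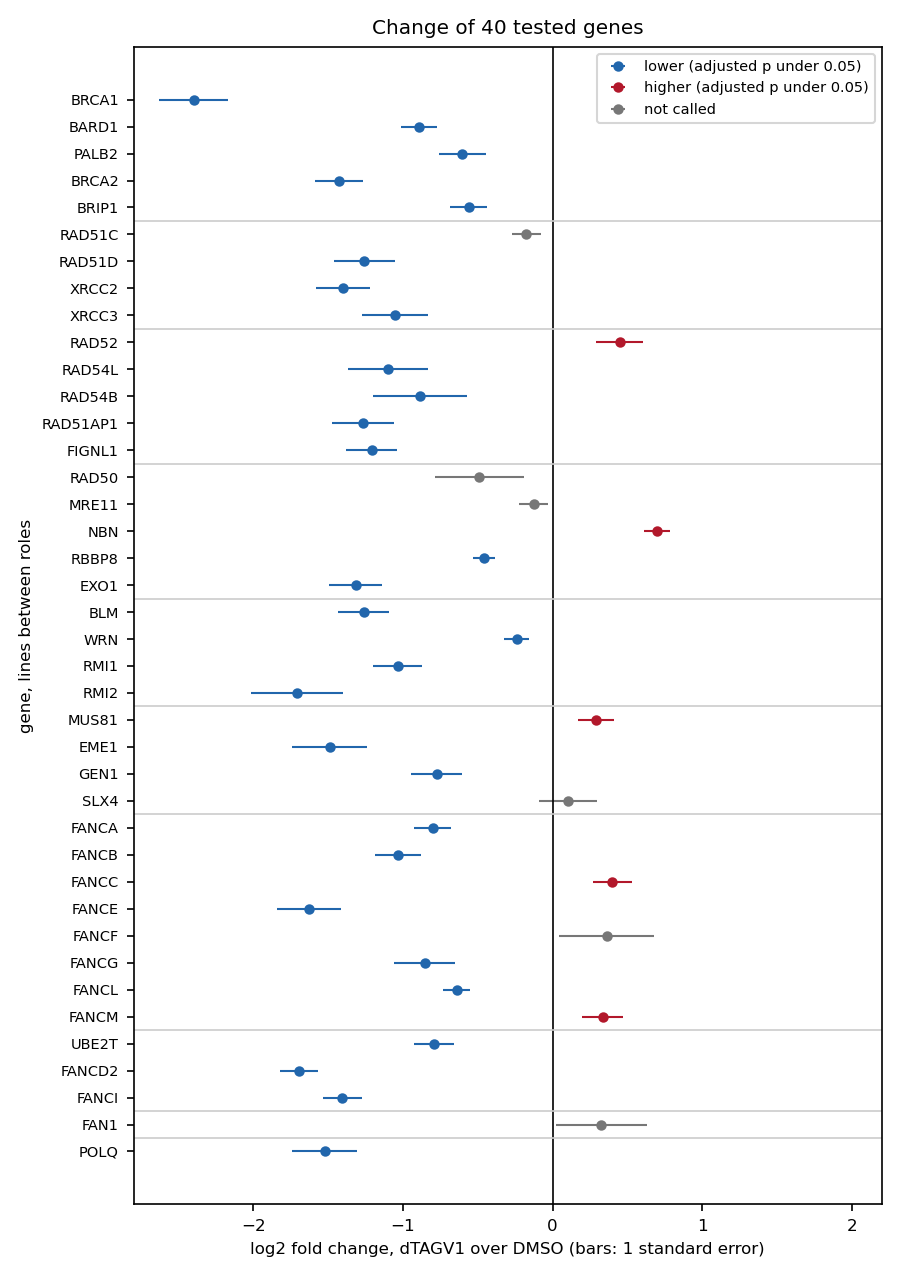
Log2 fold change of each of the 40 tested genes (x axis, dTAGV1 over DMSO, bars of 1 standard error), grouped by role, in blue for genes called lower, red for higher and grey for genes not called. Values run from -2.40 for BRCA1 to 0.70 for NBN.

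In the Fanconi core complex and its anchor FANCM, 5 of 8 genes were lower and 2 higher. FANCE (ENSG00000112039, chromosome 6, 35452356 to 35467103, plus strand), which holds FANCD2 for the ligase, had counts of 67, 61, 51 and 62 with DMSO and 24, 14, 17 and 17 with dTAGV1. Every dTAGV1 library had fewer counts than any DMSO library, and it fell from 15.5 ± 2.01 to 5.02 ± 1.27 CPM (log2 fold change -1.63, standard error 0.21, adjusted p = 4.38e-07, edgeR). FANCB (ENSG00000181544, chromosome X, 14835961 to 14873069, minus strand), part of the catalytic module, had counts of 138, 153, 156 and 100 with DMSO and 56, 61, 61 and 70 with dTAGV1 and fell from 35.2 ± 7.3 to 17.2 ± 1.19 CPM (log2 fold change -1.03, standard error 0.15, adjusted p = 2.69e-06, edgeR). FANCL, the ligase subunit itself, had a log2 fold change of -0.64, FANCA -0.80 and FANCG -0.86 (standard errors 0.09 to 0.21, adjusted p at most 0.000902, edgeR). With counts irrespective of strand FANCL was at -0.37 (adjusted p = 0.00271, edgeR). It ends in VRK2 on the other strand, where 30.6% of its reads lay. FANCA and FANCG form a module that targets the complex to the nucleus and chromatin. FANCC (ENSG00000158169, chromosome 9, 95099054 to 95426796, minus strand), which binds FANCE and FANCF, had counts of 98, 125, 100 and 96 with DMSO and 111, 106, 123 and 175 with dTAGV1. In CPM its groups did not overlap, and it rose from 26.8 ± 2.62 to 35.3 ± 4.6 CPM (log2 fold change 0.40, standard error 0.13, adjusted p = 0.0093, edgeR). Without dTAGV1 replicate 4 it was 0.29 and did not pass (adjusted p = 0.0676, edgeR). FANCM (ENSG00000187790, chromosome 14, 45135940 to 45200890, plus strand), the translocase that anchors the complex to DNA, had counts of 89, 153, 91 and 133 with DMSO and 125, 121, 142 and 153 with dTAGV1. Its groups overlapped in CPM, and it rose from 29.6 ± 6.33 to 37.5 ± 2.93 CPM (log2 fold change 0.33, standard error 0.13, adjusted p = 0.0372, edgeR). That call was lost in 10 of 17 alternatives, DESeq2 among them (0.33, adjusted p = 0.067), and leaving out 1 of DMSO replicates 1 and 3 and of dTAGV1 replicates 2, 3 and 4 (0.24 to 0.34). FANCF, with 10 to 34 counts a library, did not pass (log2 fold change 0.36, standard error 0.32, adjusted p = 0.34, edgeR). Its value was 0.18 without DMSO replicate 3, 0.18 without dTAGV1 replicate 2, 0.67 without DMSO replicate 4 and 0.61 without dTAGV1 replicate 1.

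The substrate of the core complex was lower in both subunits. FANCD2 (ENSG00000144554, chromosome 3, 10026414 to 10101930, plus strand) had counts of 286, 492, 383 and 331 with DMSO and 114, 101, 90 and 121 with dTAGV1. The dTAGV1 libraries were close to each other and far below the DMSO libraries, and it fell from 95.2 ± 18.9 to 29.5 ± 2.49 CPM (log2 fold change -1.69, standard error 0.13, adjusted p = 1.18e-10, edgeR). Its partner FANCI (ENSG00000140525, chromosome 15, 89243949 to 89317261, plus strand) had counts of 203, 329, 293 and 258 with DMSO and 82, 76, 86 and 136 with dTAGV1 and fell from 69.2 ± 11.6 to 25.9 ± 4.29 CPM (log2 fold change -1.41, standard error 0.13, adjusted p = 2.73e-09, edgeR). UBE2T, the enzyme that carries ubiquitin and works with FANCL, had a log2 fold change of -0.80 (standard error 0.13, adjusted p = 2.28e-05, edgeR). Summed, the 3 genes took 191 to 263 CPM with DMSO and 74.5 to 102 CPM with dTAGV1. FAN1 (ENSG00000198690, chromosome 15, 30903852 to 30943108, plus strand), a nuclease drawn to ubiquitinated FANCD2, had counts of 11, 18, 23 and 12 with DMSO and 17, 25, 16 and 16 with dTAGV1. Its groups overlapped and it did not pass (log2 fold change 0.32, standard error 0.30, adjusted p = 0.371, edgeR). Its value was 0.09 without dTAGV1 replicate 2, 0.19 without DMSO replicate 4, 0.20 without DMSO replicate 1 and 0.57 without DMSO replicate 3. POLQ (ENSG00000051341, chromosome 3, 121431427 to 121546641, minus strand), the polymerase of an end-joining route that competes with recombination, had counts of 90, 178, 97 and 96 with DMSO and 41, 36, 21 and 50 with dTAGV1. Its groups did not overlap, and it fell from 29.3 ± 9.14 to 10.1 ± 2.66 CPM (log2 fold change -1.52, standard error 0.22, adjusted p = 5.01e-06, edgeR).

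The other genes of the 2 pathways fell more often than they rose. Of 46 listed, 39 were tested, 20 were lower and 2 higher, with a median log2 fold change of -0.51. HROB was the lowest at -2.01, and the rises were WDR48, a cofactor of the enzyme that removes ubiquitin from FANCD2, at 0.48 and the helicase HELQ at 0.51. Standard errors of these 3 values were 0.11 to 0.30 and adjusted p-values at most 0.0115 (edgeR). Of 16 tested genes of end joining without a template and of end protection, 7 were lower and 3 higher, with a median of -0.25. SHLD2 was lowest at -0.86 and NHEJ1 highest at 0.67. Of 31 tested genes of nucleotide excision, base excision and mismatch repair, 11 were lower and 6 higher, with a median of -0.17. In these lists, in the order given, 56.4%, 62.5% and 54.8% of tested genes were called in either direction. That is near the 57.9% of all genes tested, of which 28.5% were lower and 29.4% higher. DNA replication genes and mitotic genes fell alongside: 32 of 33 and 17 of 17 tested were lower, with medians of -1.30 and -1.28. Summed levels of the replication and mitotic lists with dTAGV1 were 0.458 and 0.413 of those with DMSO. The ratio was 0.665 for the 41 genes and 0.790 for the other recombination and Fanconi genes. It was 0.884 for end joining and 0.892 for excision and mismatch repair. Epithelial markers, from outside these pathways, were at 0.757. These lists were written by hand, no test compared them, and the part of cell cycle in the result was not tested.

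**Figure D5:**
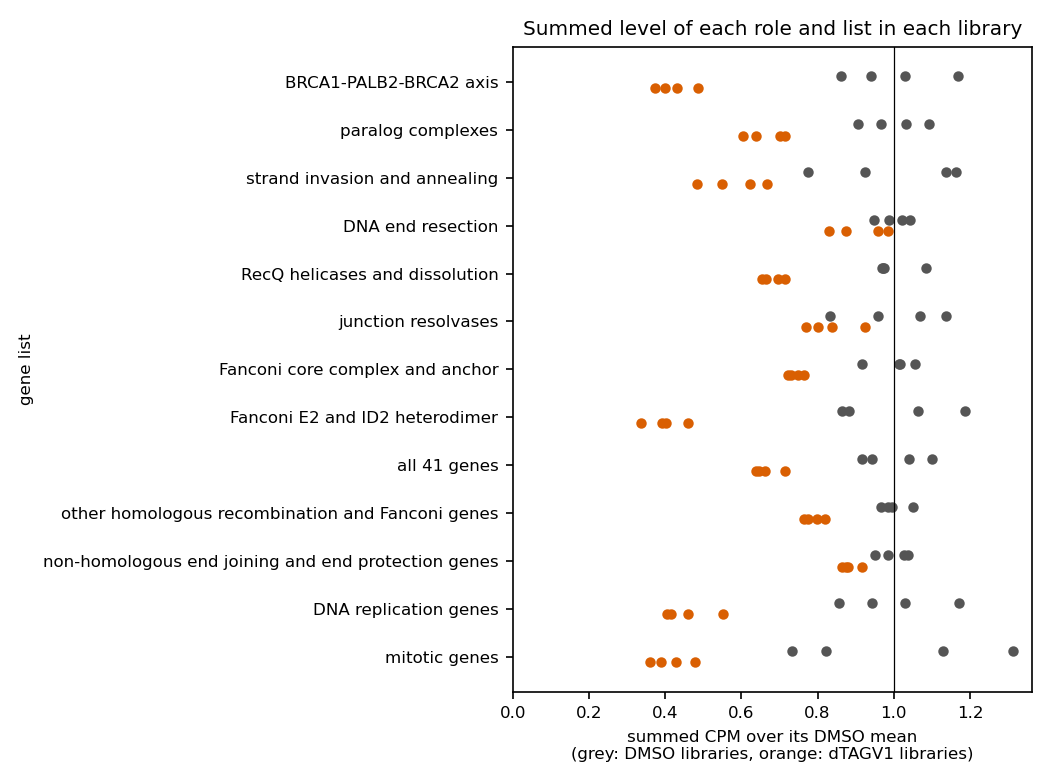
Summed CPM of 8 roles, of all 41 genes and of 4 other lists, over its mean in the DMSO libraries (x axis, from 0), with a point for each of the 4 DMSO (grey) and 4 dTAGV1 (orange) libraries. The groups overlap for end resection and for junction resolvases and are apart in the other rows shown.

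Position and size were compared because the choice of genes did not use them. In the RefSeq windows, 12 of the genes start head to head with a gene on the other strand, and 10 of these neighbours were tested. Leaving aside BRCA1, the recombination or Fanconi gene had the lower log2 fold change in 8 of 9 pairs. Medians were -0.87 for the set and 0.01 for all genes tested, so most pairs would have this order with any neighbour. The count therefore says little about position. Of the 9 neighbours, 5 were called lower and 3 higher, where 28.5% and 29.4% of all genes tested were. RAD51AP1 was at -1.27 and its neighbour FERRY3 at 0.67. EME1 was at -1.49 and MRPL27 at 0.19, PALB2 at -0.60 and DCTN5 at 0.11. GEN1 and SMC6 were both lower, at -0.77 and -0.41, as were RMI1 and HNRNPK, at -1.04 and -0.47, and FANCB and MOSPD2, at -1.03 and -0.62. The exception was SLX4 at 0.10, whose neighbour DNASE1 was at -1.59. Differences within a pair were not tested. Spans were longer than usual, with a median of 67.4 kb against 35.1 kb for 10645 tested protein-coding genes, and principal transcripts had a median of 15 exons against 9. Over the 40 genes, Spearman's rho between span and log2 fold change was -0.0026, and it was 0.146 over all protein-coding genes tested. All points come from the same 8 libraries. TGTA, the word bound by CFIm in RNA as UGUA, was in the last 100 bases of the principal transcript of 24 of 41 genes (58.5%) and of 55.5% of tested protein-coding genes. It was in 19 of the 29 called lower and in 4 of the 5 called higher. Whether these ends are the ones used here was not measured.

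Of these genes, 14 end inside a gene on the other strand, whose reads can then fall on their opposite strand. Few such reads were seen in some of them: GEN1, which ends in SMC6, had 1 opposite-strand count, and MUS81, which ends in EFEMP2, had 2. Reads on the opposite strand were 94.4% of all reads in RAD54L, which ends in LRRC41, and 94.5% in EME1, which ends in LRRC59. At the other end, 15 genes had 0 opposite-strand counts beside 12331 sense counts in all. Counted irrespective of strand, RAD54L, EME1 and FAN1 did not pass the filter on low counts. Opposite-strand counts were enough for a test in 10 of the genes, and 5 differed, where 48.4% of 3324 genes did (edgeR, adjusted p under 0.05). They were lower within EME1, FANCA and FANCI, at -0.46, -0.57 and -0.52. The genes that lie there, LRRC59, ZNF276 and POLG, had log2 fold changes of -0.28, -0.47 and -0.20 in their own sense counts, which come from a separate fit. POLG did not pass (adjusted p = 0.102, edgeR). Opposite-strand counts were higher within NBN, at 0.48, and within RAD52, at 1.20. DECR1, at 0.52 in its own sense counts, overlaps NBN on that strand over only 1824 bases, away from the 3′ end of NBN. Whether the opposite-strand reads within NBN come from DECR1 was not tested. Within XRCC3, which ends in KLC1, the signs differed: 0.37 (adjusted p = 0.366, edgeR) on the opposite strand and -0.34 (adjusted p = 0.00392, edgeR) for KLC1.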

How the data were processed

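RNA was measured in 8 libraries, 4 for each treatment in the labels, made with a QuantSeq forward kit, which reads transcript 3′ ends, per the labels' protocols. The authors deposited whole-number counts for each gene, laid out as STAR writes them. FastQC, fastp, STAR, HTSeq, DESeq2 and GRCh38 are named in the submitters' processing notes, without roles; versions, annotation and removal of PCR copies are not given in the sources used here. Sense-strand counts were used. Reads given to no gene, 56.7% to 62.8% of each library, stayed out of library sizes and tests.

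Genes were filtered with filterByExpr, scaled with TMM and compared over all 8 libraries with the quasi-likelihood test of edgeR 4.0.16 in R 4.3.3 (robust), with Benjamini-Hochberg adjustment over all 12618 genes tested and a threshold of 0.05. The standard error is the absolute log2 fold change over the square root of F. On simulated counts of 12618 genes for this comparison, with 200 changed, 59.7%, 83.1% and 97.1% of changes of 0.5, 1 and 2 on the log2 scale were recovered, with 12 false calls. In the data 57.9% of genes were called, a far larger share than was changed in the simulation, so these rates may not hold there. Gene names came from a table of names and coordinates from GENCODE 29 on GRCh38, which may not be the annotation the authors used.

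The genes and lists were chosen with earlier results of these data known. Counts in every library are given for BRCA1, BRCA2, the pair with the largest changes in each role and every gene called higher; of other lists at most 2 at each end are named, and 1 result is not reported here. Alternatives were DESeq2 1.42.0, limma-voom (limma 3.58.1), other scalings, filters, dispersions and strand, a replicate block and leaving out each library. Pairs of libraries within a group differed by more than sampling noise (chi-square over degrees of freedom 1.82 to 5.09). Figures used matplotlib 3.10.9.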

Additional observations from a re-analysis of the deposited data

Results flagged for a closer look

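Among 82 sets of 4 libraries (41 genes in each group), 3 had a library set apart from the other 3 by Dixon's criterion, which chance gives in about 1 set of 20. XRCC3 was at 21.1 CPM in DMSO replicate 3 and at 12.1 to 13.1 CPM in the other DMSO libraries. POLQ was at 42.9 CPM in DMSO replicate 2, against 23.7 to 25.9 CPM, and at 6.19 CPM in dTAGV1 replicate 3, against 10.9 to 11.8 CPM. Opposite-strand counts, which the comparison of sense counts leaves out, were higher with dTAGV1 within RAD52 (log2 fold change 1.20, standard error 0.33, adjusted p = 0.00278, edgeR) and within NBN (0.48, 0.19, adjusted p = 0.0365, edgeR).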

How the results depend on the processing

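Of 655 values of single genes under 17 alternatives, 626 kept their side of the threshold, 27 lost the call, 2 gained it and 0 changed sign. Of the 34 genes called, 26 (25 of them lower) were called in all 16 alternatives other than the filter at a mean of 100 counts, and NBN was the only rise among them. EME1 and RAD54L were not tested in the count irrespective of strand. The number of genes called lower was 29 and that called higher 5. Scaling by library size, DESeq2, no filter and counts irrespective of strand each gave 3 higher. With a mean of at least 100 counts, 18 of the genes were tested, 12 were lower and 2 higher, the median log2 fold change was -0.62, and 4120 genes differed in all, since fewer were tested. Leaving out each library gave 28 to 29 lower, 2 to 5 higher and medians of -0.97 to -0.80. The summed share differed by -0.0606 percentage points of sense counts and by -0.0436 of uniquely mapped reads. With a replicate block, 29 genes were lower, 5 higher and 7434 differed in all. Same-numbered libraries correlated at 0.130, -0.0173, 0.0230 and 0.0338 in their deviations, and 3 of 8 libraries correlated best with their own number, so the numbers were not taken as pairs. Low counts limit RAD51B, FAN1, RAD54B, RMI2, FANCF and RAD50.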
